A study of Mus musculus with 17 samples.

Results

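Kidneys of mice that express the fusion protein PRCC-TFE3 and lack HIF1a in the same epithelium were compared with kidneys of control mice that carry no Cre recombinase, to measure how far from normal kidney RNA they remained. The members are the 4 HIF1a KO and the 4 Cre(-) libraries, picked by their titles, that is 8 of the 17 libraries of the series. HIF1a KO mice carry the lsl-PRCC-TFE3 KI allele in the Rosa26 locus, a homozygous HIF1a flox allele (HIF1af/f) and the KSP-Cre transgene. Cre(-) mice carry the same silent lsl-PRCC-TFE3 KI allele without KSP-Cre, so the stop cassette in front of the fusion stays in place. Cre(-) 1 and Cre(-) 2 are HIF1af/f, and Cre(-) 3 and Cre(-) 4 have no flox allele. The 3 KI kidneys (lsl-PRCC-TFE3 KI with KSP-Cre and no flox allele) are used beside them to show where HIF1a KO kidneys lie between Cre(-) and KI. Mice were taken at 8 months of age, the sex of the mice is not given in the sources used here, and each library has its own replicate number with no statement on shared litters or dates. KSP-Cre is driven by the promoter of Cdh16 (a cadherin), a gene of the tubular epithelium, so the design aims at tubule cells, while stroma, vessels and leukocytes are also part of these whole-kidney samples.

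PRCC-TFE3 is found in a subtype of human renal cell carcinoma. It joins PRCC to TFE3, a basic helix-loop-helix transcription factor of the MiT/TFE family that binds E-boxes in the promoters of lysosomal, autophagy and melanosome genes. HIF1a is the oxygen-regulated subunit of the hypoxia-inducible factor, which binds a short core motif and is known for driving glycolysis. Healthy kidney tubules, above all the proximal tubule, depend on mitochondrial oxidation of fatty acids, carry the bulk of solute transport and make glucose.

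Each value given is in CPM, counts scaled to the library total, on library sizes scaled by the trimmed mean of M values, unless it is named otherwise. Total counts ranged from 16710464 to 24668827 in HIF1a KO kidneys and from 18547274 to 22641506 in Cre(-) kidneys. The share of counts on mitochondrially encoded genes was 10.28% to 12.36% in HIF1a KO kidneys, 19.14% to 23.12% in Cre(-) kidneys and 8.68% to 8.85% in KI kidneys. Since these are whole tissue, fewer cells of a type and less RNA per cell cannot be told apart. Hif1a itself (chromosome 12, 73901375 to 73947530, GRCm38) was at 162.6, 193, 189 and 198 CPM in HIF1a KO kidneys 1 to 4 and at 102, 128, 118 and 118 CPM in Cre(-) kidneys 1 to 4. The whole-gene count was thus higher in every HIF1a KO kidney, and a count summed over the gene does not show a deleted exon, so it does not check the knockout label. Cdh16, whose promoter drives the Cre, was at 749 to 922 CPM in HIF1a KO kidneys and at 1119 to 1222 CPM in Cre(-) kidneys. HIF1a KO 1 stood apart from its group: among named genes, 10 of the 21 values that lay far from the rest of their group were in this kidney, and it was nearer to Cre(-) than the other HIF1a KO kidneys in tubule genes. Counts of genes called against Cre(-) differed little without it, while counts against KI depended on it.

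HIF1a KO kidneys differed from Cre(-) kidneys across most of the transcriptome. Of 17011 genes tested, 5422 (31.9%) were higher and 5115 (30.1%) were lower in HIF1a KO kidneys by edgeR's quasi-likelihood test at a Benjamini-Hochberg adjusted p under 0.05, 61.9% in all. In KI kidneys the same test against the same Cre(-) kidneys gave 5381 higher (31.6%) and 4981 lower (29.3%). Without HIF1a KO 1 the share of calls that were higher was 52.2%, against 51.5% with it. On log2(TPM + 1) and log2(TPM + 0.1), which divide by the library total with the mitochondrial genes in it, limma gave shares of 79.1% and 79.7%, and the median of all genes then lay 0.35 and 0.45 above 0 on the log2 scale. The median log2 fold change of all genes in the main fit was 0.0243.

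Large decreases were fewer in HIF1a KO than in KI kidneys, a difference in counts that was not tested. A log2 fold change of at least 3, which is 8-fold, was reached by 556 genes upward (3.27%) and 206 downward (1.21%) in HIF1a KO kidneys, and by 531 upward (3.12%) and 376 downward (2.21%) in KI kidneys. At a log2 fold change of at least 1, 2507 genes were higher (14.7%) and 1918 lower (11.3%) in HIF1a KO kidneys, and 2436 were higher (14.3%) and 2234 lower (13.1%) in KI kidneys. The 95% interval of the fold change lay inside 1.5-fold of Cre(-) for 5524 genes (32.5%) in HIF1a KO kidneys and for 5063 genes (29.8%) in KI kidneys, a group of 3 mice and not 4. These counts rest on the scaling of the main fit and were not taken on TPM. There the median of all genes in HIF1a KO against Cre(-) lay 0.35 and 0.45 above 0, with the 1.5-fold limit at 0.58. Single genes given below as inside 1.5-fold carry the same limit. At a log2 fold change of at least 2 the counts were 1145 higher (6.73%) and 610 lower (3.59%) in HIF1a KO kidneys, and 1072 higher (6.3%) and 824 lower (4.84%) in KI kidneys. Set directly against KI, 438 genes (2.57%) were higher and 487 (2.86%) lower in HIF1a KO kidneys, 5.44% in all. These last counts rest on single kidneys, with 142 higher and 166 lower without HIF1a KO 1, 140 and 133 without HIF1a KO 3, 139 and 222 without KI 2, and 268 and 246 without KI 3. Over all kidneys left out in turn they ran from 139 to 574 and from 133 to 595.

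As a measure per kidney, the median over all genes of the absolute log2 difference from the Cre(-) mean was taken. It was 0.45, 0.54, 0.52 and 0.53 in HIF1a KO kidneys 1 to 4. It was 0.54, 0.57 and 0.54 in KI kidneys. Each Cre(-) kidney set against the mean of the other 3 gave 0.16 to 0.18. HIF1a KO 1 was the nearest to Cre(-) of the 7 fusion-expressing kidneys, HIF1a KO kidneys 2 to 4 lay close to the KI values, and no HIF1a KO kidney came near the values of Cre(-) kidneys.

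**Figure D1:**
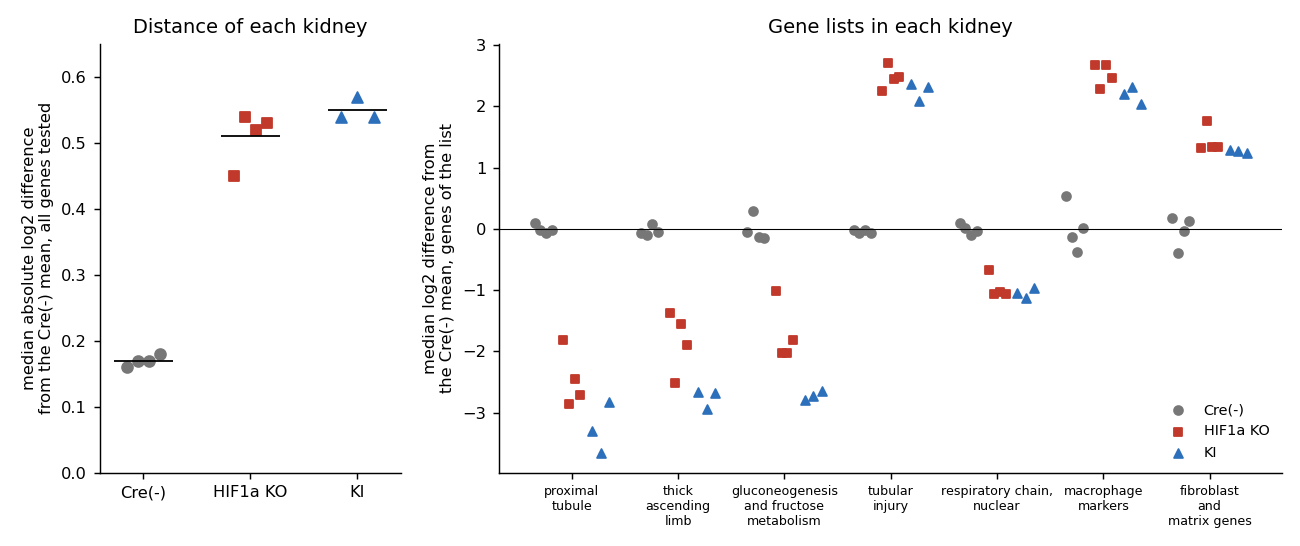
Left, the median absolute log2 difference from the Cre(-) mean over all genes tested, 1 point per kidney, with the group mean as a line. Right, the median log2 difference from the Cre(-) mean for 7 gene lists, 1 point per kidney. HIF1a KO kidneys sit at 0.45 to 0.54 on the left, Cre(-) kidneys at 0.16 to 0.18. On the right HIF1a KO 1 is the leftmost square of each list and the nearest to 0 of the HIF1a KO kidneys in the proximal tubule (-1.81) and thick ascending limb (-1.38) lists.

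The lists of tubule segments and of mitochondrial metabolism lay below Cre(-), and those of injury, leukocytes, cell division and matrix lay above. The plot of list medians shows that for most tubule lists the HIF1a KO median lay between 0 and the KI median, while for macrophage, lymphocyte and injury lists it lay farther from 0 than the KI median. Both comparisons use the same Cre(-) kidneys, so the medians are given side by side and not as independent results.

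**Figure D2:**
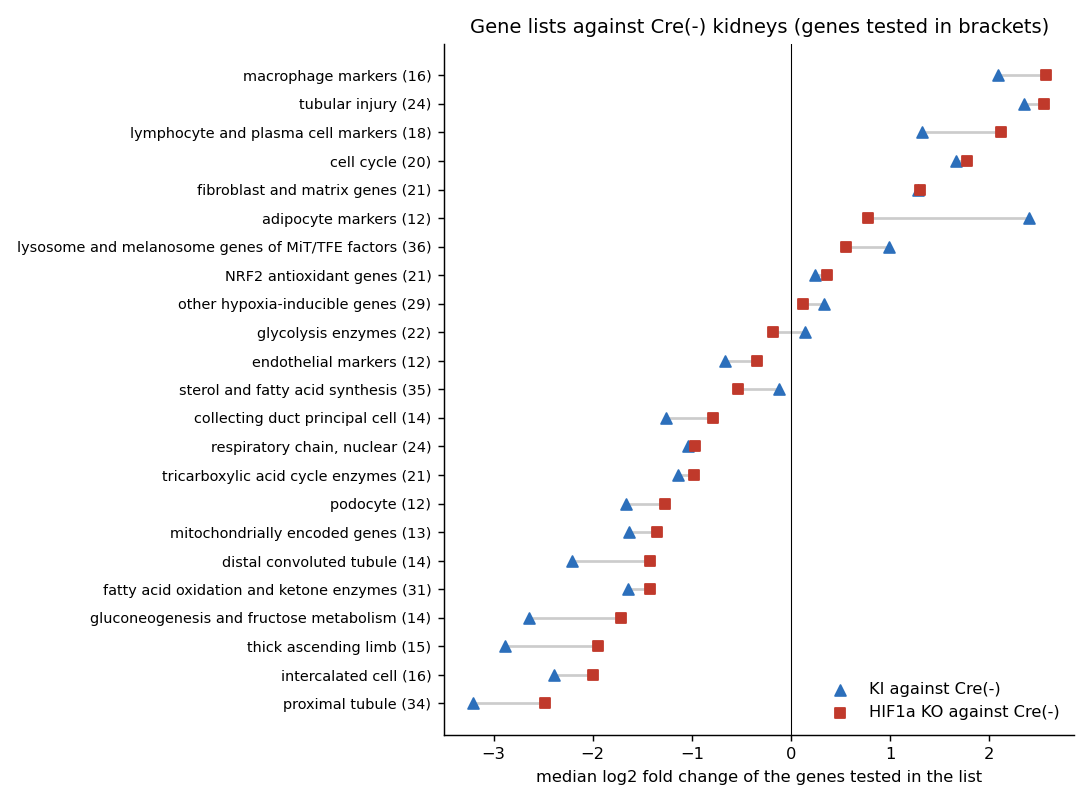
Median log2 fold change against Cre(-) of the genes tested in each list, for HIF1a KO kidneys (squares) and KI kidneys (triangles). The proximal tubule list is the lowest for HIF1a KO at -2.48, with KI at -3.21, and macrophage markers (2.57, KI 2.09) and injury markers (2.55, KI 2.35) are at the top, in an order that turns without HIF1a KO 1 (2.52 and 2.62).

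Genes of lysosomes and melanosomes, which the MiT/TFE factors control, stayed high in HIF1a KO kidneys. Of 36 tested, 21 were higher than in Cre(-) kidneys and 6 were lower, with a median log2 fold change of 0.55 against 0.0243 for all genes and 0.99 in KI kidneys. Mlana and Abcb5, also on the list, did not pass the filter on low counts. On log2(TPM + 1) the median was 0.97, with 27 higher and none lower by limma. Summed over the list, TPM, a unit per transcript length and library total, ran from 14788 to 24549 in HIF1a KO kidneys, from 3973 to 4493 in Cre(-) kidneys and from 32365 to 34849 in KI kidneys.

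Gpnmb (chromosome 6, 49036546 to 49070929, GRCm38), a melanosome and lysosome glycoprotein, was at 3269, 7175, 4539 and 7452 CPM in HIF1a KO kidneys and at 1.85, 2.14, 0.993 and 1.33 CPM in Cre(-) kidneys. It was at 13009 to 15629 CPM in KI kidneys. The HIF1a KO level was far above every Cre(-) kidney, with a log2 fold change against Cre(-) of 11.78 ± 0.51 (SE), adjusted p = 2.6e-10 by edgeR. Against KI the log2 difference in Gpnmb was -1.35 (adjusted p = 0.0318 by edgeR). That call was lost without HIF1a KO 1, HIF1a KO 3 or any one KI kidney (adjusted p up to 0.1). It was also lost with the replicate block, with limma on log2(TPM + 0.1) and in a fit of the 2 groups alone. Tyrp1, an enzyme of pigment synthesis, was at 74.3, 191, 103 and 193 CPM in HIF1a KO kidneys and at 0 in every Cre(-) kidney. Against a floor of 3 counts per Cre(-) library, Tyrp1 was at least 745-fold higher, and the median of the list with Tyrp1 at this bound was again 0.55. Trpm1, an ion channel of pigment cells, was at 173 to 365 CPM in HIF1a KO kidneys and at 1.07 to 1.46 CPM in Cre(-) kidneys, a log2 fold change of 7.80 ± 0.37 with adjusted p = 6.07e-10 by edgeR. These pigment cell genes had the largest changes of the list, while the melanosome genes Pmel (0.44, adjusted p = 0.27) and Dct (-0.83, adjusted p = 0.0512) did not pass edgeR's test.

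Lysosomal hydrolases followed with smaller changes. Ctsl (cathepsin L) was at 3021, 6127, 3673 and 4924 CPM against 423, 379.7, 412 and 409.6 CPM in Cre(-) kidneys, a log2 fold change of 3.45. Hexa, the alpha subunit of beta-hexosaminidase, was at 435 to 585 CPM against 58.6 to 67.8 CPM, and Ctsd (cathepsin D) at 1313 to 1692 CPM against 420.4 to 497 CPM. Groups did not overlap for any of these hydrolases. Over all genes tested, every HIF1a KO kidney lay above every Cre(-) kidney for 4895 (28.8%) and below for 4649 (27.3%). The regulators of mTORC1 at the lysosome, Flcn (1.08), Fnip2 (1.11), Rragc (0.99) and Rragd (1.47), were all higher by log2 fold change with adjusted p at or below 8.62e-07 by edgeR. Among the genes that were lower were Neu1 (-0.51), Atp6v1h (-0.49), Gabarapl1 (-0.50), Lamp2 (-0.37) and Wipi1 (-0.31), and no gene of the list was lower by limma on log2(TPM + 1). For 8 of the 36 genes, among them Atp6v1c1, Atp6ap1, Ctsa and Map1lc3b, the 95% interval lay inside 1.5-fold of Cre(-). On log2(TPM + 1) limma called Atp6v1c1 higher, at 0.45.

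Against KI, 9 genes of the list were lower in HIF1a KO kidneys and none was higher, with 1 to 11 lower when 1 kidney was left out and 2 without HIF1a KO 1. The call for Atp6v0d1 held whichever kidney was left out and was lost in a fit of the 2 groups alone. Atp6v0d1, a subunit of the proton pump that acidifies lysosomes, was at 114 to 138 CPM in HIF1a KO kidneys, 77.6 to 92.5 CPM in Cre(-) kidneys and 167 to 195 CPM in KI kidneys. Its log2 fold change was 0.59 against Cre(-) and -0.46 against KI (adjusted p = 2.46e-05 and 0.0134 by edgeR), so it lay between the groups.

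Promoter sequences of RefSeq (GRCm38.p6, 250 bases before to 50 after a gene's start) were matched by symbol for 12265 of the 17011 genes tested. Where a symbol had several such windows, only the first was searched, here and below. The search was for CACGTG, an E-box of MiT/TFE factors, which reads the same on both strands. The study gives the motif of the family as TCAYRTGA (Y is C or T, R is A or G). CACGTG is a form of its core, and the other forms were not searched. CACGTG was found in 9 of 28 promoters of the lysosome and melanosome list (32.1%) and in 1150 of all 12265 (9.38%). The gluconeogenesis and fructose list, whose genes were mostly lower, had it in 5 of 13 promoters (38.5%), so the share was not particular to the lysosome and melanosome list. Among genes with a log2 fold change of at least 1 it was found in 8.25% of those higher and 8.03% of those lower in HIF1a KO kidneys. The promoters of 2 list members that were higher in HIF1a KO kidneys are shown, chosen after the matches were seen because they hold several E-boxes close to the start. Lamp1, a major membrane protein of lysosomes, holds 4 of them and lies at chr8:13158911-13159160 on the + strand. Mcoln1, the calcium channel of the lysosome membrane, holds 2 and lies at chr8:3500269-3500518 on the + strand. The 250 bases before the start are given 5′ to 3′, with each CACGTG in capitals.
Lamp1: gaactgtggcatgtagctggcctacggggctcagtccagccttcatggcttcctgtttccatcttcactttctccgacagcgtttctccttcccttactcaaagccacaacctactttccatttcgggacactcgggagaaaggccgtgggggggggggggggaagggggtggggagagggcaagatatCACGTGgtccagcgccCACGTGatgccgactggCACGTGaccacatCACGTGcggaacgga
Mcoln1: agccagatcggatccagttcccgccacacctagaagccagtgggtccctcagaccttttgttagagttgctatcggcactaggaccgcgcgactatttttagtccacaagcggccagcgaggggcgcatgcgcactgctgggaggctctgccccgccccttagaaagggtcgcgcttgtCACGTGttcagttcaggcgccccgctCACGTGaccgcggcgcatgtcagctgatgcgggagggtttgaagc

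Lamp1 was at 1661, 1689.6, 1417 and 1587 CPM in HIF1a KO kidneys and at 1052, 966, 992 and 999 CPM in Cre(-) kidneys, a log2 fold change of 0.66 ± 0.08 (SE). Mcoln1 was at 134, 172, 132 and 156 CPM against 67.3, 63.2, 61.5 and 59.5 CPM, a log2 fold change of 1.24 ± 0.09. Both were higher in every HIF1a KO kidney (adjusted p = 5.31e-06 and 3.46e-08 by edgeR). Gpnmb, Tyrp1 and Trpm1, with the largest changes of the list, hold no CACGTG in the window searched, which says only that these letters are not there. Trpm1 has 2 windows, of which only the first was searched.

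Transporters of the proximal tubule remained far below Cre(-). Of 34 markers tested, 33 were lower and none was higher, with a median log2 fold change of -2.48 (-2.68 without HIF1a KO 1) and -3.21 in KI kidneys. The remaining gene, Cyp2e1, gave -0.99 with adjusted p = 0.228 by edgeR, and Slco1a1 did not pass the filter. Their summed TPM ran from 4431 to 7158 in HIF1a KO kidneys, from 29944 to 40119 in Cre(-) kidneys and from 4485 to 5158 in KI kidneys. For none of the 34 did the interval lie inside 1.5-fold of Cre(-).

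Kap, the androgen-regulated kidney protein, was at 164, 19.1, 52.6 and 36.3 CPM in HIF1a KO kidneys and at 10514, 5686, 7716 and 9262 CPM in Cre(-) kidneys. The highest HIF1a KO value was that of HIF1a KO 1, and the log2 fold change of -6.93 ± 0.87 (adjusted p = 5.97e-06 by edgeR) was -7.84 without it. Slc22a7, an organic anion transporter, was at 8.01, 0.519, 2.64 and 1.48 CPM against 213 to 336 CPM. Slc34a1, the phosphate transporter of the brush border, was at 572, 164, 289 and 258 CPM against 3272 to 3812 CPM. Lrp2 (megalin), the endocytic receptor for filtered protein, was at 896, 345, 495 and 442 CPM against 4098 to 5243 CPM. In each of these genes HIF1a KO 1 was the highest of its group and still far below the lowest Cre(-) kidney. Hnf4a, the transcription factor of proximal tubule identity, had a log2 fold change of -1.58 with adjusted p = 5.76e-06 by edgeR.

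Against KI, 11 proximal tubule genes were higher in HIF1a KO kidneys and 1 was lower, but without HIF1a KO 1 the count higher was 1, and leaving out other kidneys gave up to 12. Slc13a1, the sulfate transporter, passed the test against both groups whichever kidney was left out, though not against KI in a fit of the 2 groups alone (adjusted p = 0.0661 by edgeR). It was at 215, 106, 113 and 106 CPM in HIF1a KO kidneys, 270.1 to 379 CPM in Cre(-) kidneys and 27.8 to 61.7 CPM in KI kidneys, with log2 fold changes of -1.24 against Cre(-) and 1.54 against KI (adjusted p = 0.00099 and 0.0136 by edgeR). The gene that was lower than in KI was Napsa, an aspartic protease of the lysosome, at 1146 to 1465 CPM in HIF1a KO, 1672 to 2426 CPM in KI and 3302 to 3700.3 CPM in Cre(-) kidneys, a call lost without HIF1a KO 3 or KI 3 (adjusted p up to 0.101).

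In the thick ascending limb, which reabsorbs salt and makes uromodulin, 13 of 15 markers were lower than in Cre(-) kidneys, with a median of -1.95 and -2.88 in KI kidneys. Egf, made in the distal nephron, was at 242, 26.8, 136 and 92.4 CPM in HIF1a KO kidneys and at 2004, 2022, 2385 and 1869 CPM in Cre(-) kidneys, a log2 fold change of -4.06 ± 0.70 with adjusted p = 0.000129 by edgeR. Slc12a1, the sodium-potassium-chloride cotransporter, was at 741, 299, 538 and 462 CPM against 1498 to 2599 CPM, a log2 fold change of -1.95. Umod (uromodulin) was an exception. It was at 3434, 1742, 2635 and 2152 CPM in HIF1a KO kidneys and at 3647, 3553, 3948 and 2906 CPM in Cre(-) kidneys, so the groups overlapped through HIF1a KO 1. The log2 fold change was -0.50 with a 95% interval from -1.01 to 0.02 (adjusted p = 0.0872 by edgeR), and without HIF1a KO 1 it was -0.69 with adjusted p = 0.0233. KI kidneys held 657 to 1193 CPM of Umod, below every HIF1a KO kidney (log2 difference 1.48, adjusted p = 0.01 by edgeR, and 0.0064 to 0.0423 when 1 kidney was left out, but 0.0506 in a fit of the 2 groups alone).

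The distal convoluted tubule lost Slc12a3, its sodium-chloride cotransporter, which was at 752, 286, 428 and 295 CPM against 2294 to 3091 CPM in Cre(-) kidneys (log2 fold change -2.60, adjusted p = 2.69e-05 by edgeR). In this list 13 of 14 genes were lower, with a median of -1.42 and -2.21 in KI kidneys. Trpv5, the calcium channel of the distal nephron, gave -0.01 with its interval inside 1.5-fold. Principal cells of the collecting duct had the tubule median nearest to 0, with 10 of 14 lower, 1 higher and a median of -0.79. Their water channel Aqp2 gave -0.43 with adjusted p = 0.302, and Aqp3 was higher by 0.82 with adjusted p = 0.000407 by edgeR. With limma on log2(TPM + 1), 4 of these 14 genes were lower. Intercalated cells, which secrete acid or base, had 14 of 16 markers lower with a median of -2.0. Their chloride-bicarbonate exchanger Slc4a1 was at 7.37 to 19.5 CPM against 69.3 to 87.8 CPM, and Kit was the member that was higher, by 1.96. Podocytes, cells of the glomerular filter, had 9 of 12 markers lower and 2 higher, with a median of -1.27. Thsd7a was among the higher ones (0.99, adjusted p = 8.47e-06 by edgeR). Against KI, 7 genes of the thick ascending limb and 3 of the distal convoluted tubule lists were higher, with 2 to 9 and 0 to 4 when 1 kidney was left out. No gene of the intercalated or podocyte lists passed edgeR's test against KI. Over all genes tested only 2.57% were higher and 2.86% lower, so the lack of calls does not set these short lists apart.

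Genes that make glucose and take up fructose, functions of the proximal tubule, were lower in HIF1a KO kidneys, with a median nearer to 0 than in KI kidneys. Of 14 tested, 13 were lower than in Cre(-) kidneys, with a median of -1.71 and -2.64 in KI kidneys, and Pck2, a mitochondrial enzyme of the same step as Pck1, was higher by 0.44. Pck1, the cytosolic enzyme that commits carbon to glucose, was at 989, 233, 441 and 431 CPM in HIF1a KO kidneys, 2396 to 4987 CPM in Cre(-) kidneys and 35.5 to 111 CPM in KI kidneys. HIF1a KO kidneys lay at a log2 fold change of -2.60 ± 0.58 from Cre(-) (adjusted p = 0.00112 by edgeR). Against KI the log2 difference in Pck1 was 2.84 (adjusted p = 0.0239 by edgeR). That call was lost without HIF1a KO 1, HIF1a KO 3, KI 1 or KI 2 (adjusted p up to 0.0784). It was also lost with the replicate block and in a fit of the 2 groups alone.

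The fructose transporter Slc2a5 was at 74.1, 36.1, 34.2 and 40.0 CPM in HIF1a KO kidneys. It was at 126, 120.1, 132 and 96.2 CPM in Cre(-) kidneys and at 12.4, 8.24 and 10.4 CPM in KI kidneys. Its log2 fold change of -1.37 against Cre(-) and 2.15 against KI (adjusted p = 0.000687 and 0.0054 by edgeR) kept its call whichever kidney was left out. Slc5a1, a sodium-glucose cotransporter, showed the same order with 46.3 to 65.7 CPM in HIF1a KO, 97.2 to 137 CPM in Cre(-) and 26.8 to 33.9 CPM in KI kidneys (0.86 against KI, adjusted p = 0.00734 by edgeR). In all, 6 of the 14 genes were higher than in KI kidneys, 2 to 7 when 1 kidney was left out and 3 without HIF1a KO 1.

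Mitochondrial energy genes were lower together and close to the KI level. Of 31 genes of fatty acid oxidation and ketone metabolism, 30 were lower (median -1.42, KI -1.64). All 21 genes of the tricarboxylic acid cycle (median -0.98, KI -1.14), all 24 nuclear genes of the respiratory chain (median -0.97, KI -1.04) and all 13 mitochondrially encoded genes (median -1.35, KI -1.63) were lower too. On log2(TPM + 1) the medians of these 4 lists were -0.96, -0.58, -0.52 and -0.91, with 25, 18, 21 and 13 genes lower by limma. Slc25a20, the carnitine carrier, was the exception among the 31 at -0.13 (adjusted p = 0.376 by edgeR).

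Acadm, which starts the oxidation of medium-chain fatty acids, was at 274, 208, 224 and 224 CPM in HIF1a KO kidneys and at 1924, 1599, 1424 and 1341 CPM in Cre(-) kidneys (log2 fold change -2.76 ± 0.18, adjusted p = 1.08e-08 by edgeR). Ndufs1, a core subunit of complex I, was at 134, 105, 114 and 115 CPM against 279 to 321 CPM, and mt-Co1, the mitochondrially encoded core of complex IV, was at 25499 to 27947 CPM against 57333 to 67260.3 CPM. HIF1a KO 1 was the highest of its group in each. Against KI, 2 genes of the fatty acid list, 1 of the cycle, 2 of the mitochondrially encoded and none of the nuclear respiratory chain were higher. None of the 4 lists had a gene lower, beside 2.57% of all genes higher and 2.86% lower. Without HIF1a KO 1 no call was left in any of the 4 lists.

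The glycolysis genes, among them textbook targets of HIF1a, went in both directions. Of 22 tested, 6 were higher and 11 lower than in Cre(-) kidneys, with a median of -0.18 and 0.14 in KI kidneys. All genes tested went in both directions too, with 31.9% higher and 30.1% lower. On log2(TPM + 1) the median was 0.24, that is -0.11 from the median of all genes, with 11 higher and 3 lower by limma. Hk2 (hexokinase 2), which traps glucose in the cell, was at 85.7, 243, 117 and 197 CPM in HIF1a KO kidneys, 2.47, 1.23, 1.72 and 1.01 CPM in Cre(-) kidneys and 355 to 477 CPM in KI kidneys. It thus stayed far above Cre(-) in HIF1a KO kidneys, at a log2 fold change of 6.66 ± 0.49 with adjusted p = 3.39e-08 by edgeR. Eno2, an enolase of neurons, was at 19.5 to 29.3 CPM against 1.77 to 2.67 CPM (log2 fold change 3.52), and Slc16a3, which exports lactate, at 5.31 to 6.33 CPM against 1.23 to 1.77 CPM (1.84). KI kidneys lay above every HIF1a KO kidney in all of these, with 355 to 477 CPM of Hk2, 39.4 to 60.9 CPM of Eno2 and 8.39 to 37.8 CPM of Slc16a3, and the calls against KI for Hk2, Eno2 and Slc16a3 (adjusted p = 0.0457, 0.0209 and 0.019 by edgeR) were each lost without HIF1a KO 1 and without HIF1a KO 3, and without further kidneys of either group, with adjusted p up to 0.131.

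Among the 11 genes of the list that were lower, Pgam1 (phosphoglycerate mutase) was at 212, 181, 191 and 189 CPM in HIF1a KO kidneys against 412, 409, 377 and 356 CPM in Cre(-) kidneys, a log2 fold change of -1.01 with adjusted p = 1.76e-06 by edgeR. Pgk1 (phosphoglycerate kinase) was at 179.6, 140.0, 115 and 119.7 CPM against 234, 279, 174 and 198 CPM (-0.68, adjusted p = 0.0029), with HIF1a KO 1 inside the Cre(-) range. Aldoc (-1.89), Ldhb (-1.46), Eno1 (-0.78), Pdk1 (-0.76), Gapdh (-0.58), Tpi1 (-0.52), Hk1 (-0.47), Pfkl (-0.45) and Ldha (-0.37) were the others that were lower by edgeR. Besides Hk2, Eno2 and Slc16a3, Pfkp (1.17), Pklr (0.91) and Pfkfb3 (0.61) were higher, and Aldoa (0.15), Gpi1 (0.22) and Pkm (0.07) had intervals inside 1.5-fold. Gapdh has processed copies in the genome, between which reads may be split, so its level is uncertain.

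Of the other hypoxia-inducible genes, 10 of 29 were higher and 8 lower, with a median of 0.12 (0.33 in KI kidneys). These counts are near the shares of all genes tested, 31.9% higher and 30.1% lower, and set the list apart in neither direction. Among those higher, Edn1 (an endothelin) gave a log2 fold change of 3.04, and Ddit4, an inhibitor of mTORC1, 2.00. Car9 and Car12, carbonic anhydrases of the cell surface, were lower at -1.73 and -2.43, and so were Vegfa (-0.76) and Egln1 (-0.85), the angiogenic factor and the oxygen sensor. P4ha1, a collagen prolyl hydroxylase, was lower than in both other groups, at 59.6, 65.3, 54.4 and 71.5 CPM in HIF1a KO kidneys, 80.2 to 103 CPM in Cre(-) kidneys and 85.8 to 137 CPM in KI kidneys. Its log2 fold change was -0.55 against Cre(-) and -0.79 against KI (adjusted p = 0.00163 and 0.00851 by edgeR). The difference from Cre(-) did not pass limma's test on log2 TPM, and that from KI was lost in a fit of the 2 groups alone. In contrast Angptl4, an inhibitor of lipoprotein lipase, was at 134 to 249 CPM in HIF1a KO, 64.2 to 139.8 CPM in Cre(-) and 17.5 to 60.1 CPM in KI kidneys. It did not pass edgeR's test against Cre(-) (0.94, interval -0.04 to 1.91). Against KI it passed (2.34, adjusted p = 0.0227 by edgeR), but not without HIF1a KO 1, KI 1 or KI 2 (adjusted p up to 0.0835).

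The core of the hypoxia response element was searched as ACGTG or its reverse complement CACGT, outside any CACGTG. It was found in 10 of 22 promoters of the glycolysis list (45.5%), in 11 of 20 of the other hypoxia-inducible genes (55.0%) and in 1975 of all 12265 (16.1%). A pair of glycolysis promoters with 2 cores each is shown, chosen after the matches were seen since Hk2 was higher and Pgk1 lower in HIF1a KO kidneys. Hk2 lies at chr6:82774455-82774704 on the - strand and Pgk1 at chrX:106186850-106187099 on the + strand (GRCm38.p6). The 250 bases before the start are given 5′ to 3′, with each core in capitals.
Hk2: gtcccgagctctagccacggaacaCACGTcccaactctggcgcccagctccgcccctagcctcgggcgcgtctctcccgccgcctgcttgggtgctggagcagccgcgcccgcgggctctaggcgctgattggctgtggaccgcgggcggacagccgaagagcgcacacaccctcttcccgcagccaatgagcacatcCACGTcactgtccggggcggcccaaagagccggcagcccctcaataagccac
Pgk1: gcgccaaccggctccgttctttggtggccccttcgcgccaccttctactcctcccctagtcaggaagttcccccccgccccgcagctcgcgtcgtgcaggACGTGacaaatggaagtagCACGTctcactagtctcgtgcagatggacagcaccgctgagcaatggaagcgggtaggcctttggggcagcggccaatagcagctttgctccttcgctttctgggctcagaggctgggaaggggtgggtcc

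Sterol and fatty acid synthesis was lower for most genes. Of 35 tested, 22 were lower and 4 higher, with a median of -0.53 and -0.12 in KI kidneys. On log2(TPM + 1) limma gave 14 lower and 11 higher with a median of -0.06, or -0.42 from the median of all genes. Cyp51, a demethylase of cholesterol synthesis, was at 80.0, 40.8, 52.0 and 46.8 CPM in HIF1a KO kidneys and at 471, 394, 439 and 394 CPM in Cre(-) kidneys, a log2 fold change of -2.95 with adjusted p = 2.31e-07 by edgeR. Scd1, the stearoyl-CoA desaturase, was at 249 to 444 CPM against 931 to 1468 CPM (-2.02). Hmgcs1, an early enzyme of the mevalonate pathway, was lower too (-1.49). Acacb, which makes malonyl-CoA at mitochondria, went the other way with 228 to 309 CPM against 63.0 to 79.5 CPM (1.89, adjusted p = 3.52e-08 by edgeR). Srebf1, the regulator of fatty acid synthesis, gave 0.35 with an interval from -0.01 to 0.71, and Fasn 0.31 with an interval from -0.36 to 0.97. Acly, which supplies acetyl-CoA, was at 236 to 254 CPM against 207 to 276 CPM with its interval inside 1.5-fold. Against KI, 6 genes of the list were lower and none was higher, 0 to 6 when 1 kidney was left out and 1 without HIF1a KO 1.

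**Figure D3:**
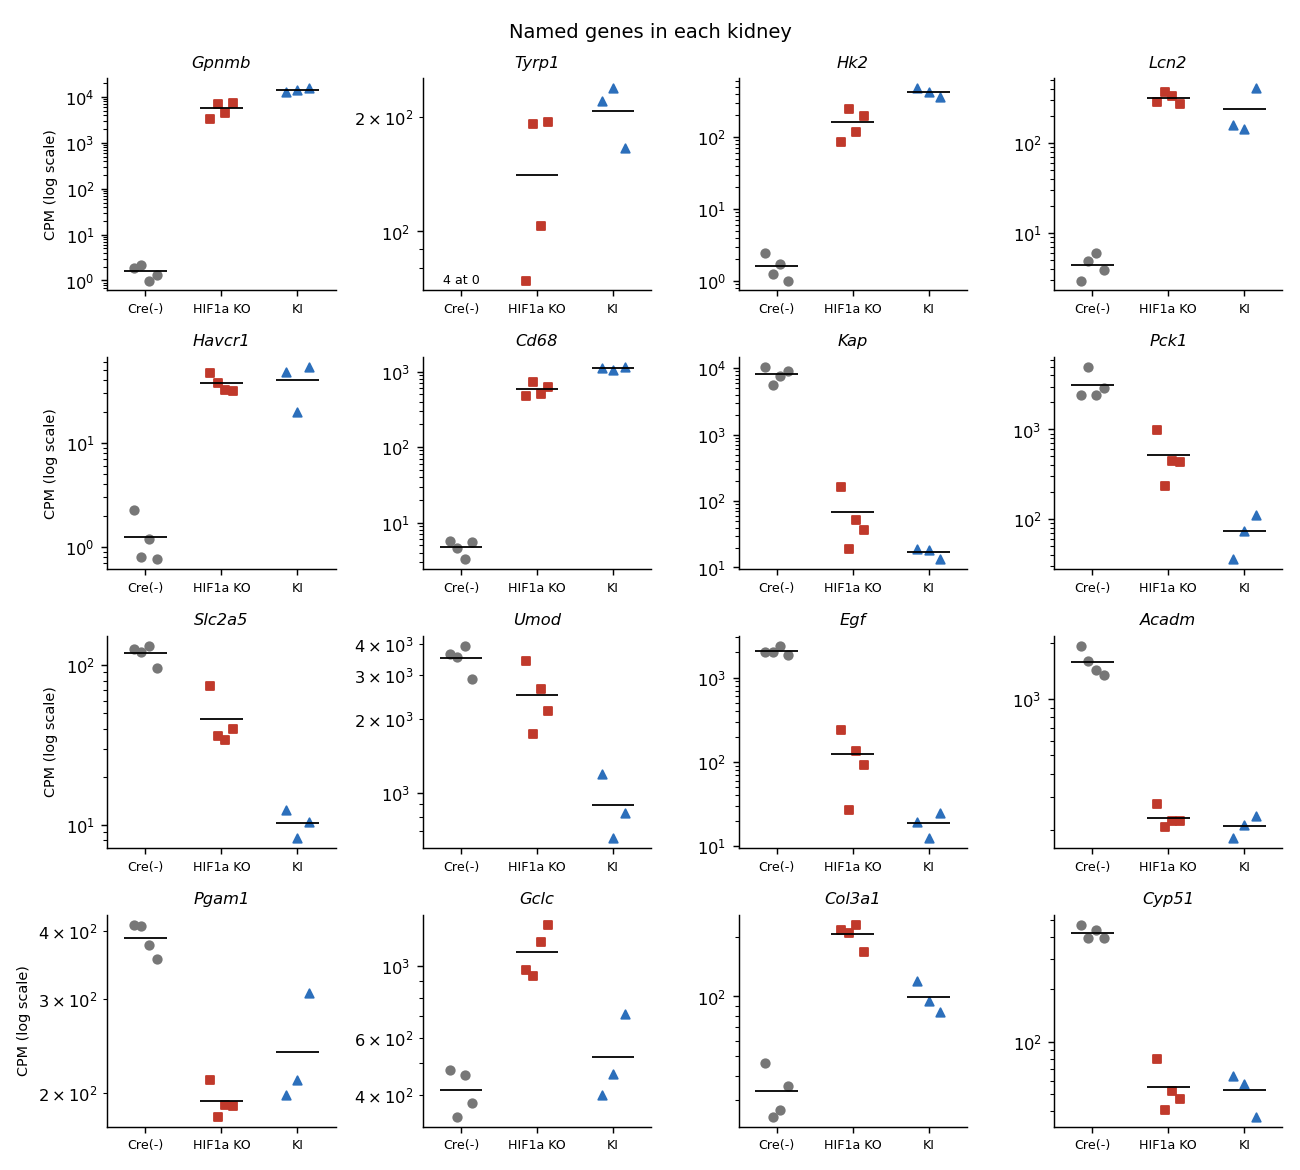
CPM of 16 genes in each Cre(-), HIF1a KO and KI kidney on log axes, with group means as lines. Values of 0 are written in words. Hk2 in HIF1a KO kidneys (85.7 to 243) sits far above Cre(-) (1.01 to 2.47), Slc2a5 sits between both groups, and Umod of HIF1a KO 1 (3434) lies inside the Cre(-) range.

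Markers of injured tubule cells remained high. Of 24 tested, 22 were higher than in Cre(-) kidneys and none was lower, with a median of 2.55 and 2.35 in KI kidneys. Lcn2 (lipocalin 2), a secreted injury marker, was at 280.4, 369.7, 328 and 270.0 CPM in HIF1a KO kidneys and at 2.95, 4.82, 6.02 and 3.85 CPM in Cre(-) kidneys, a log2 fold change of 6.14 ± 0.46 with adjusted p = 3.81e-08 by edgeR. Havcr1 (kidney injury molecule 1) was at 47.5, 37.7, 32.3 and 31.9 CPM against 2.26, 0.803, 1.19 and 0.758 CPM (4.92 ± 0.40, adjusted p = 8.73e-08). The stress cytokine Gdf15 was at 67.2 to 110.4 CPM against 1.89 to 2.91 CPM, and Vcam1, an adhesion molecule of failed tubule repair, at 125 to 166 CPM against 15.0 to 18.3 CPM. Groups did not overlap for any of these markers, beside 28.8% of all genes with every HIF1a KO kidney above every Cre(-) kidney. Prom1 and Krt7 had intervals inside 1.5-fold, with log2 fold changes of -0.22 (0.29 on log2(TPM + 1)) and 0.30. Against KI, Prom1 passed edgeR's test as the single gene of the list (0.63, adjusted p = 0.0214), and not without HIF1a KO 1 or any one KI kidney (adjusted p up to 0.0712).

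Cell division genes were higher as well, 18 of 20 with a median of 1.78 (1.66 in KI kidneys). Mki67, the proliferation marker, was at 43.4, 39.7, 57.2 and 51.7 CPM against 8.23, 3.80, 8.01 and 5.05 CPM (2.95, adjusted p = 1.48e-05 by edgeR), and Cdk1, the mitotic kinase, at 6.13 to 7.65 CPM against 0.253 to 0.891 CPM. Tyms, which makes thymidylate, was lower at -0.62. Ccnd1 (cyclin D1) was at 696, 946, 759.5 and 855 CPM in HIF1a KO kidneys, 285 to 374 CPM in Cre(-) kidneys and 1013 to 1672 CPM in KI kidneys. Its log2 fold change was 1.37 against Cre(-) and -0.81 against KI (adjusted p = 5.64e-06 and 0.0214 by edgeR). The call against KI was lost without HIF1a KO 1, HIF1a KO 3, KI 1 or KI 2 (adjusted p up to 0.0779). It was also lost with the replicate block and in a fit of the 2 groups alone. Of 21 antioxidant genes of the factor NRF2, 12 were higher and 5 lower, with a median of 0.36. In KI kidneys 7 were higher and 7 lower, with a median of 0.24. The shares of all genes tested in HIF1a KO kidneys were 31.9% higher and 30.1% lower. Hmox1, which breaks down heme, was at 89.7 to 185 CPM against 15.8 to 22.1 CPM. Gclc, the catalytic subunit of the enzyme that limits glutathione synthesis, was at 974, 932, 1189 and 1348 CPM in HIF1a KO kidneys, 341 to 476 CPM in Cre(-) kidneys and 399 to 711 CPM in KI kidneys. It was higher than in both groups (1.42 against Cre(-), 1.08 against KI, adjusted p = 9.36e-06 and 0.0111 by edgeR, the latter lost in a fit of the 2 groups alone). For Nqo1, a classic target of NRF2, the interval lay inside 1.5-fold of Cre(-).

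Of 16 macrophage markers, 14 were higher and none was lower, with a median of 2.57 (2.52 without HIF1a KO 1) and 2.09 in KI kidneys. Cd68, a lysosomal membrane protein used as a macrophage marker, was at 477, 732, 510.0 and 625 CPM in HIF1a KO kidneys and at 3.24 to 5.76 CPM in Cre(-) kidneys, a log2 fold change of 6.94 ± 0.24 with adjusted p = 3.81e-11 by edgeR. The other 13 markers that were higher had log2 fold changes from 1.6 (Aif1) to 3.68 (Cd163), with Itgam at 3.23, Lyz2 at 2.91, Mrc1 at 2.6 and Adgre1 at 2.23, and Csf1r, the receptor that defines the lineage, gave -0.04 with its interval inside 1.5-fold. The summed TPM of the 16 markers ran from 2100.4 to 2219 in HIF1a KO kidneys and from 171 to 233 in Cre(-) kidneys. In KI kidneys it ran from 2542.6 to 2954.6. By this sum KI kidneys lay farther from Cre(-) than HIF1a KO kidneys, while by the median they lay nearer. Against KI, 4 markers were higher and 1 was lower by edgeR, and without HIF1a KO 1 no call was left. Which cells carry Cd68 was not tested. Lymphocyte and plasma cell markers were higher for 15 of 18 with a median of 2.12 (1.32 in KI kidneys). Cd79a, a part of the B cell receptor, was at 5.26, 2.23, 20.2 and 12.4 CPM against 0.316 to 0.993 CPM, and Cd8a, of cytotoxic T cells, gave 0.02 with adjusted p = 0.975.

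Fibroblast and matrix genes were higher for 17 of 21 with a median of 1.3 (1.28 in KI kidneys). Col3a1, a fibrillar collagen, was at 215, 209.6, 229.9 and 168 CPM in HIF1a KO kidneys, 24.7 to 46.3 CPM in Cre(-) kidneys and 83.3 to 119 CPM in KI kidneys. It was above both groups in every kidney (2.63 against Cre(-), 1.06 against KI, adjusted p = 4.71e-08 and 0.0136 by edgeR), and so was Col1a2 with 161 to 192 CPM against 38.2 to 54.4 and 97.2 to 113 CPM (1.94 and 0.74, adjusted p = 1.07e-08 and 0.0087). Both calls against KI held whichever kidney was left out. Timp3, an inhibitor of matrix proteases, was lower at -0.94. Endothelial markers had 7 of 12 lower, none higher and a median of -0.34. On log2(TPM + 1) that median was 0.08, or -0.27 from the median of all genes, with 3 lower and 3 higher by limma. Kdr, the receptor of VEGF, was at 34.4 to 38.4 CPM against 65.5 to 94.1 CPM (-1.07), while Pecam1, Cdh5, Egfl7 and Nos3 had intervals inside 1.5-fold.

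Fat cell markers differed between single kidneys. Adipoq (adiponectin) was at 6.03, 23.5, 2.99 and 1.25 CPM in HIF1a KO kidneys, 0.964 to 9.87 CPM in Cre(-) kidneys and 5.12, 127.5 and 8.56 CPM in KI kidneys, with KI 2 the highest. Of 12 markers, 1 was higher and 1 lower than in Cre(-) kidneys. Plin4, a lipid droplet protein, was the one that was higher, at 236 to 282 CPM in HIF1a KO kidneys, 8.74 to 12.0 CPM in Cre(-) kidneys and 235 to 371 CPM in KI kidneys (4.68 ± 0.18, adjusted p = 8.61e-11 by edgeR). The summed TPM of the 12 markers ran from 249 to 815 in HIF1a KO kidneys, 91.6 to 233 in Cre(-) kidneys and 240.1 to 3842 in KI kidneys, and the part of fat tissue in other results was not tested.

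Outside the lists, the genes with the largest changes by log2 fold change were at 0 or low in one group. Diras2, a small GTPase, was at 329.9, 533, 402 and 506 CPM in HIF1a KO kidneys against 11 counts in all 4 Cre(-) libraries together, a ratio of 2630 with a 95% exact binomial counting interval from 1470 to 5270. KI kidneys held 818 to 949.9 CPM, and Diras2 was lower in HIF1a KO than in KI kidneys (-1.01, adjusted p = 0.00502 by edgeR), whichever kidney was left out. Crisp1, a secreted protein best known from the epididymis, was at 2.27, 13.8, 3.74 and 6.05 CPM against 0 in every Cre(-) kidney, at least 34.3-fold higher. The pseudogenes Gm6122 and Rps10-ps2 were at least 52.2-fold and 47.1-fold higher, with levels that are uncertain because reads can be shared with their parent genes. At the other end were Ccdc170, a coiled-coil protein, with 0.156 to 0.777 CPM against 32.0 to 50.4 CPM, C8a, a complement component, with 0.104 to 3.29 CPM against 102 to 112 CPM, Cyp2d12, a cytochrome P450, with 2.15 to 5.74 CPM against 169 to 209.7 CPM, and Sec14l3, a lipid-binding protein, with 0.312 to 1.79 CPM against 33.7 to 79.1 CPM. HIF1a KO 1 was the highest HIF1a KO kidney in all 4 of these. Among genes that set HIF1a KO apart from KI kidneys, the 5 with the largest increase were immunoglobulin variable segments, which belong to a family that shares reads. Igkv12-46 was at 5.80, 4.78, 9.61 and 76.9 CPM in HIF1a KO kidneys and at 0.114 to 1.15 CPM in KI kidneys. Its log2 difference of 5.68 (adjusted p = 0.0285 by edgeR) ran from 3.82 to 7.40 when 1 kidney was left out, and the call was lost without HIF1a KO 4, KI 2 or KI 3 (adjusted p up to 0.098). The calls of the other 4 segments were each lost without at least 4 of the 7 kidneys taken singly. By the same rule, the 5 with the largest decrease against KI were Gm3375 (-7.64), Rnase1 (-3.57), Ly6f (-2.58), Nppa (-2.09) and Art5 (-2.09). The calls of Gm3375, described below, and of Rnase1 held whichever kidney was left out. Rnase1 had 70 counts in all 4 HIF1a KO libraries together. The calls of Ly6f, Nppa and Art5 were lost without some of the kidneys taken singly.

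The Cre(-) group joins mice with and without the HIF1a flox allele, and these were compared with each other. Between Cre(-) 1 and 2 and Cre(-) 3 and 4, 7 of 17011 genes (0.0411%) passed edgeR's test, 5 higher (0.0294%) and 2 lower (0.0118%) with the flox allele, with 2029 (11.9%) at an unadjusted p under 0.05, and DESeq2 called 264. With 2 mice a side, the allele, linked strain background and mouse cannot be told apart. Against Cre(-) 1 and 2 alone, 4828 genes were higher and 4694 lower in HIF1a KO kidneys, and against Cre(-) 3 and 4 alone 4695 and 4512.

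Dhrs7, a dehydrogenase on chromosome 12 (72650353 to 72664909, GRCm38), within 10 Mb of the start of Hif1a, was at 11.0 and 10.0 CPM in Cre(-) 1 and 2 and at 19.5 and 21.9 CPM in Cre(-) 3 and 4. HIF1a KO kidneys held 20.0 to 25.7 CPM of Dhrs7, which was 1.08 above the flox-carrying controls and 0.10 above the others (adjusted p = 2.32e-06 and 0.436). The reference chosen thus changed the value of Dhrs7 by over 1.5 times and ended its call.

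The pseudogene Gm3375 on chromosome 7 was close to 0 in both flox-carrying controls (0.206 and 0.107 CPM) and in HIF1a KO kidneys (0 to 0.156 CPM), and was at 13.9 and 16.1 CPM in Cre(-) 3 and 4 and 13.3 to 14.0 CPM in KI kidneys. Its call against Cre(-) (-6.79, adjusted p = 0.000459 by edgeR) was lost with Cre(-) 1 and 2 as reference (-1.21, adjusted p = 0.224). It was also near 0 in HIF2a KO kidneys (0.0432 to 0.0875 CPM), whose label names no HIF1a flox allele. Rcbtb2, Gm4742 and Psmb5, all on chromosome 14, and the pseudogene Gm9200 on the X chromosome were higher in Cre(-) 1 and 2. Gm4742 was at 2.47 and 3.11 CPM in these, 1.43 to 3.06 CPM in HIF1a KO kidneys and 0.0631 to 0.132 CPM in Cre(-) 3 and 4, with KI kidneys at 0.108 to 0.115 CPM.

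**Figure D4:**
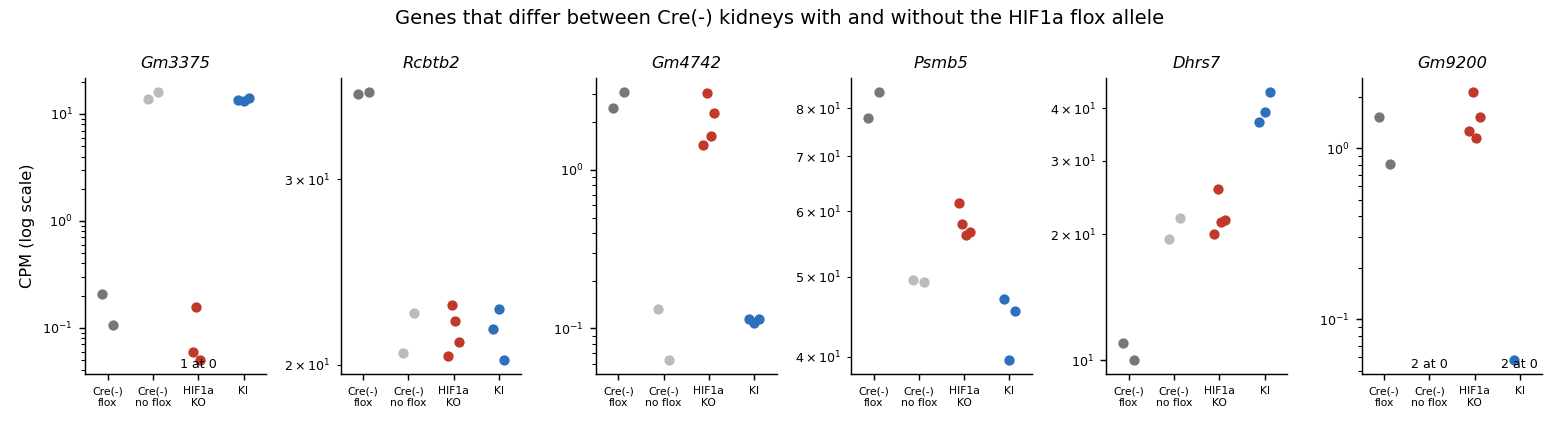
CPM on log axes of 6 of the genes that differed between Cre(-) kidneys with the HIF1a flox allele (dark grey) and without it (light grey), with HIF1a KO (red) and KI (blue) kidneys, 1 point per kidney. Values of 0 are written in words. Gm3375 and Gm4742 of HIF1a KO kidneys lie with the flox-carrying controls, and KI kidneys lie with the controls that have no flox allele.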

How the data were processed

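RNA of 17 mouse kidneys was sequenced as stranded mRNA libraries. Per the labels and the study's methods, reads were trimmed with Trim Galore 0.6.6 and cutadapt 2.5, aligned with STAR 2.7.9a and quantified with RSEM. Both hg38 and GRCm38 are named. The rows are mouse transcripts. The authors deposited expected counts, estimates per transcript that need not be whole and are not normalized, and TPM, normalized for transcript length and library total. The strand setting of the quantification is not given in the sources used here, so antisense and overlapping genes are uncertain.

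Of 119353 transcripts, 116770 (97.8%) matched GENCODE M21 and held 99.04% to 99.24% of counts. They were summed to 35971 genes and the sums rounded. No libraries were identical. The main test was edgeR 4.0.16 (R 4.3.3), the quasi-likelihood test with TMM factors, filterByExpr with a minimum count of 10 (17011 genes kept) and 1 fit of all 5 groups. P-values were Benjamini-Hochberg adjusted over all genes tested at 0.05, and they measure the spread between mice of a group. Intervals are 95%. Levels per kidney are CPM, and the distance per kidney used log2(CPM + 0.1). Floors of 3 counts and counting intervals cover counting error only. Simulated data for HIF1a KO against Cre(-) had 17011 genes, 200 of them changed. On these edgeR made 193 calls, of which 5.7% were false, and found 100% of 4-fold and 82% of 2-fold changes. DESeq2 1.42.0 made 227 calls with 15.4% false. In the real comparison 61.9% of genes were called, far more than were changed in the simulation, so these rates need not hold for it.

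The genes named are label checks, up to 4 per list with the largest change against Cre(-), up to 3 per list with the lowest adjusted p against KI, and the largest changes of all genes (6 each way against Cre(-), 5 each way against KI). Other list members are named after their values were seen, as exceptions or by role. The 24 lists, the rule and the comparison were chosen with earlier results of these data known. Alternatives were DESeq2, its size factors, no filter, a replicate block, fits of 2 groups, limma 3.58.1 on log2(TPM + 1) and log2(TPM + 0.1), no mitochondrial genes, a fold minimum, either pair of Cre(-) mice and each kidney left out in turn. Other groups were not analysed here beyond the shared fit. Results on a few genes are not reported here.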

Additional observations from a re-analysis of the deposited data

Results flagged for a closer look

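In 270 groups of 4 kidneys, formed by the named genes in HIF1a KO and in Cre(-) kidneys, 21 held a kidney that lay farther from the rest than Dixon's 95% limit for 4 samples, where chance alone flags about 1 in 20 groups. HIF1a KO 1 accounted for 10 of them. In that kidney the tubular and sugar genes Slc13a1 (214.9 CPM, others 106.1 to 112.8), Khk (159.4, others 65.9 to 74.2), Slc2a5 (74.1, others 34.2 to 40.0), Clic3 (3.88, others 2.34 to 2.49) and Cyp2d12 (5.74, others 2.15 to 2.44) were high. The mitochondrial genes Sucla2 (103.3, others 80.6 to 83.0), Suclg2 (167.3, others 118.6 to 123.7), Uqcrc2 (218.3, others 164.0 to 170.2) and Uqcrfs1 (109.3, others 84.5 to 88.5) were also high there, and Tfe3 was low (45.6, others 54.6 to 55.7).

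Among the other HIF1a KO kidneys, Slc16a3 (6.33 CPM, others 5.31 to 5.48), Edn1 (43.8, others 22.9 to 26.4) and Igkv4-79 (23.7, others 0.597 to 4.33) were high in HIF1a KO 2. In HIF1a KO 3, Kdr was low (34.4, others 37.8 to 38.4) and Igkv6-17 high (35.3, others 0.883 to 3.55). In HIF1a KO 4, Gm6122 (13.6, others 8.3 to 9.11) and Igkv12-46 (76.9, others 4.78 to 9.61) were high.

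Among Cre(-) kidneys, Ehhadh (1313.5 CPM, others 736.2 to 826.0) and Tkfc (384.3, others 269.8 to 282.4) were high in Cre(-) 2. Slc8a1 was high in Cre(-) 1 (349.2, others 242.0 to 257.4), and Clic3 was low in Cre(-) 3 (7.15, others 8.36 to 8.59).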

How the results depend on the processing

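Leaving out 1 kidney at a time gave 5012 to 5399 genes higher and 4728 to 4936 lower than in Cre(-) kidneys. With limma on log2(TPM + 1) and log2(TPM + 0.1) these counts were 9043 and 9218 higher and 2383 and 2346 lower, with a fold change of at least 0.58 (log2) 3601 and 3261, and with at least 1 2507 and 1918. Against KI, leaving out 1 kidney gave 139 to 574 higher and 133 to 595 lower, DESeq2 782 and 883, a fit of 2 groups 112 and 134, limma 251 and 255 higher and, with 0.1 added, 297 lower. A fold minimum of 0.58 left 232 lower, and one of 1 left 162 higher and 69 lower. DESeq2 called 264 genes between Cre(-) kidneys with and without the flox allele, and 9324 genes had an interval inside -1 to 1. The causes of these shifts were not tested. Nothing in the labels says that replicate numbers pair the kidneys. Deviations of same-numbered HIF1a KO and Cre(-) kidneys correlated at -0.10 to 0.10, and those of the other pairs at -0.14 to 0.11. These values do not tell whether kidneys shared litters or dates. With the replicate block the counts were 5286 and 4934 against Cre(-) and 237 and 242 against KI.

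Of the values of named genes against Cre(-), 2526 kept direction and side of the threshold, 50 lost the call, 18 gained one and 23 turned sign, and against KI 611 kept and 302 lost it. Atp6v1c1 turned to -0.0034 with DESeq2, -0.0024 with its size factors, -0.0086 without mitochondrial genes, -0.0036 and -0.0052 without HIF1a KO 1 or 2, -0.0053 and -0.033 without Cre(-) 3 or 4, and -0.078 against Cre(-) 1 and 2, with single-kidney values from -0.033 to 0.062. With limma on log2(TPM + 1) and log2(TPM + 0.1), Tfcp2l1 turned to 0.03 and 0.031, Prom1 to 0.29 and 0.30, Bnip3l to 0.48 in both, Esam to 0.079 and 0.083, Gclm to 0.48 in both and Epas1 to 0.024 and 0.025. Prcc turned to -0.0066 without HIF1a KO 1, -0.0022 without HIF1a KO 2 and -0.00097 without Cre(-) 2, with single-kidney values up to 0.068. On log2(TPM + 1) and log2(TPM + 0.1), limma gave Atp6v1c1 at 0.45 and 0.46 and Prcc at 0.44 and 0.46. Each of these was called higher. Sex is not labelled. Of the Y-linked genes listed, Ddx3y and Eif2s3y did not pass the filter, Uty gave -0.10 (adjusted p = 0.807 by edgeR) and Kdm5d, at 9.31 to 10.9 CPM in HIF1a KO and 16.2 to 19.4 CPM in Cre(-) kidneys, -0.81 (adjusted p = 0.000815), which limma on log2 TPM did not call. A fit with these genes as a term was not run. Library order follows the groups, so a batch, if any, cannot be told apart from genotype. At these depths, 3 counts are 0.122 to 0.18 CPM in HIF1a KO kidneys, and lower values were not resolved.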
